A study of Mus musculus with 8 samples.

Results

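Rock1, Ccar1, Sltm, Ppig, Esf1, Heatr6, Glg1, Kif5b and Brd8 are 9 mouse genes measured in a macrophage-like cell line. They were selected for reading lower, relative to untreated cells, after Bacillus clausii than after Lactobacillus acidophilus. The data do not bear out Brd8 as a gene lowered by B. clausii, as described below. The selection used the mean log2 ratio of treated over untreated signal with B. clausii and its difference from the mean ratio with L. acidophilus. Those values are therefore given here as descriptions and carry no test. The genes are measured by 27 of the 41174 probes on the array, and 22 of the 27 were among the 21336 probes kept as bright enough (flagged well above background in either channel on 2 arrays or more, with no spot discarded). Each probe is a single 60-base spot and is treated apart, since probes of the same gene gave different readings. For each gene the kept probe with the highest mean brightness is called its brightest probe. In Heatr6 a probe that was not kept was brighter, as described below.

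The cells were RAW264.7, a macrophage-like line of BALB/c mouse origin, exposed at 100 bacteria per cell to B. clausii MTCC-8326 or to L. acidophilus MTCC-10307 for 1, 2, 4 or 6 h, each set against untreated cells of the same time. Each bacterium and time has 1 two-colour array, 8 in all, on which RNA of treated cells carried Cy5 and RNA of untreated cells carried Cy3. Equal amounts of RNA from 3 cultures were pooled for each array, so the scatter between cultures was not measured and no single array can be tested. All 4 B. clausii arrays share 1 slide and all 4 L. acidophilus arrays another, so slide and bacterium cannot be told apart. The dyes were never exchanged, and dye and treatment cannot be told apart either. Between 39.7% and 46.4% of all probes were well above background in treated cells on the B. clausii arrays, against 44.8% to 51.6% on the L. acidophilus arrays. Of 9 macrophage markers, 8 were well above background in both channels on all 8 arrays. The exception was Itgam, and none of the 3 epithelial markers was above background on any array. With bulk RNA, fewer cells of a kind and less RNA per cell cannot be told apart.

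The 9 genes come from several branches of cell biology. Ccar1 and Brd8 act in transcription: Ccar1 is a coactivator that works with nuclear receptors and the Mediator complex, and Brd8 is a bromodomain subunit of the TIP60 histone acetyltransferase complex. Sltm is a nuclear RNA- and DNA-binding protein of the scaffold attachment factor family, Ppig is a nuclear cyclophilin with an arginine- and serine-rich tail, and Esf1 is a nucleolar protein whose yeast counterpart is needed for early processing of ribosomal RNA. Rock1 is a kinase that drives actomyosin contraction, and Kif5b is the widely expressed heavy chain of the motor kinesin-1. Glg1 is a membrane protein of the Golgi, and Heatr6 is a protein built of HEAT repeats.

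With B. clausii the brightest probes of all 9 genes had a mean ratio below the untreated level over the 4 times, and that of Brd8 (1.47-fold lower) came from 1 spot. For the other 8 the fold was 2.40 for Ccar1, 2.27 for Sltm, 2.23 for Ppig, 2.18 for Esf1, 2.11 for Heatr6, 2.05 for Glg1, 2.03 for Rock1 and 1.69 for Kif5b. With L. acidophilus the same 8 probes were 1.07-fold (Kif5b) to 1.39-fold (Ccar1) lower. In the order of the mean difference between the bacteria over all 14858 genes with a kept probe, each taken by its brightest probe, 7 of the genes hold ranks 1 to 7 from the lowest, from Rock1 at -0.82 to Glg1 at -0.70. Larp7 at -0.70 and Rtf1 at -0.68, which are not among the 9, follow, then Kif5b at rank 10 (-0.66), and Brd8 lies at rank 41 (-0.47). Ranked over all kept probes instead, the same 7 probes lie between rank 2 (Rock1) and rank 11 (Glg1). A probe of Ddx46, which is not among the 9, was lower than any of them at -0.85. The median difference of the 9 brightest probes was -0.75, against -0.014 over the brightest probes of all genes.

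**Figure D1:**
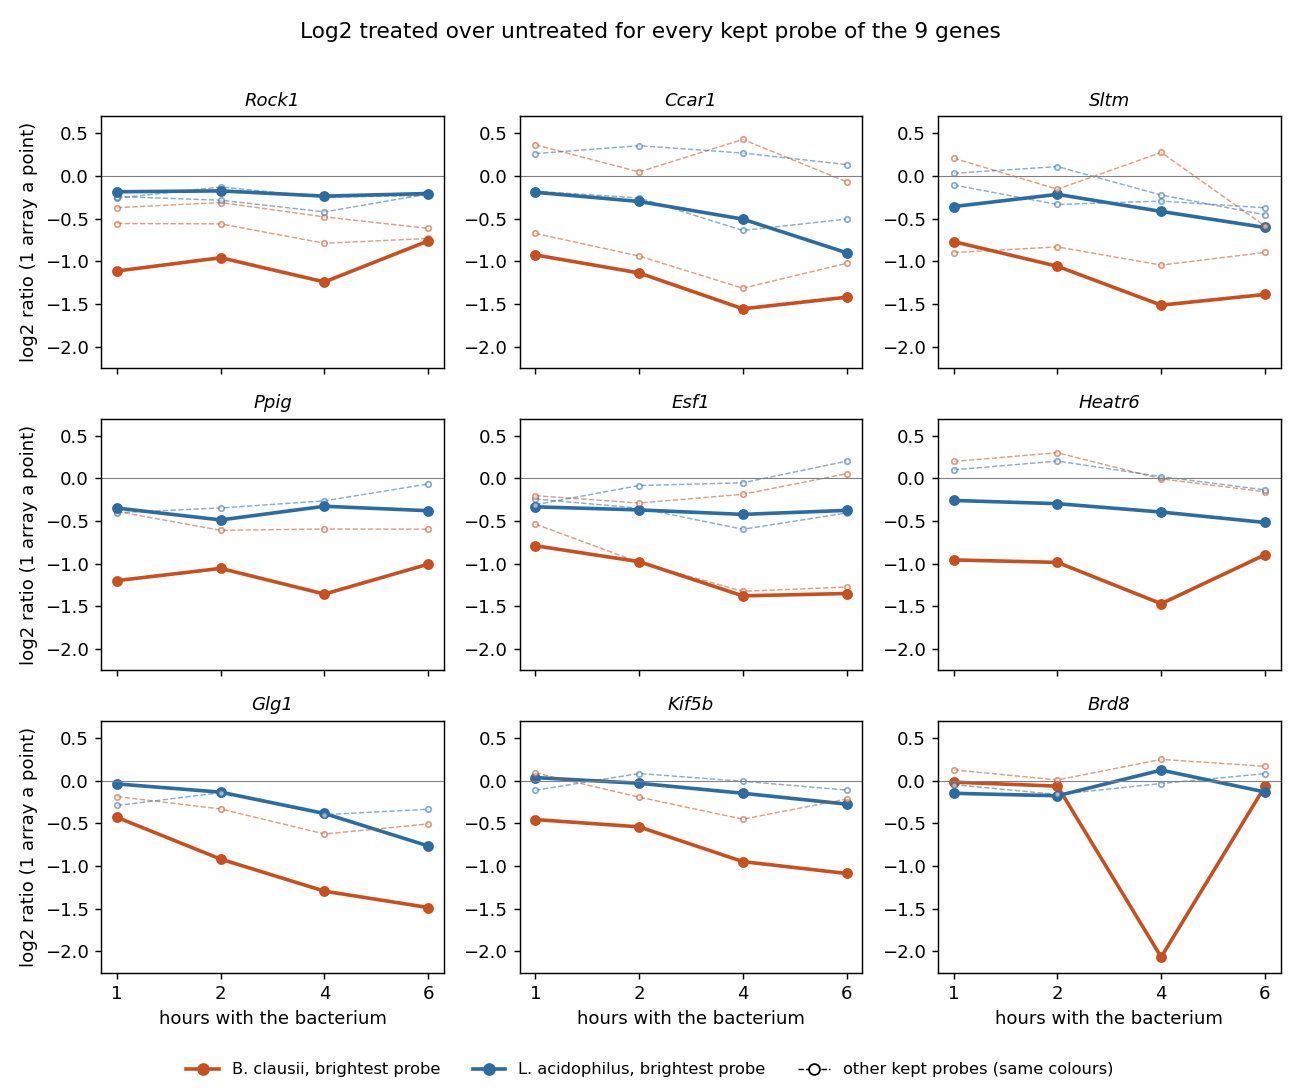
Log2 ratio of treated over untreated signal (vertical axis) at 1, 2, 4 and 6 h (horizontal axis), 1 panel a gene and 1 array a point, with B. clausii in orange and L. acidophilus in blue. Thick lines join the brightest probe of each gene and thin dashed lines its other kept probes. For 8 genes the thick orange line lies below the thick blue one at all 4 times, while Brd8 departs at 4 h only.

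Ccar1 had the lowest mean ratio with B. clausii. Its brightest probe starts at base 2514 of the target transcript and lies at chr10:62216079-62216138 on the minus strand (build mm9). Its log2 ratios were -0.93, -1.14, -1.56 and -1.42 at 1, 2, 4 and 6 h with B. clausii, against -0.19, -0.30, -0.51 and -0.90 with L. acidophilus. The 2 sets of values do not overlap, and both lie lower at 4 and 6 h than at 1 and 2 h. A second probe of the same transcript, at base 1782, gave -0.67, -0.94, -1.32 and -1.02 with B. clausii and -0.18, -0.26, -0.64 and -0.50 with L. acidophilus. It repeated the pattern of the first on an independent spot, and its ratios do not overlap either. The probe at base 2913 of another target accession of Ccar1 did not: its B. clausii ratios ran from -0.067 to 0.43 and its L. acidophilus ratios from 0.13 to 0.36. The last Ccar1 probe was not above background on any array and was not kept. Ccar2, the paralog of Ccar1, had differences of -0.069 and 0.087 at its 2 kept probes, neither of which passed the test (limma, adjusted p = 0.57 and 0.458).

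The bases of the probes are shown for Ccar1, Sltm and Esf1, because probes of 1 transcript are what agrees or disagrees in these genes. Each is a 60-base stretch that leaves a reading frame with no stop codon, printed 5′ to 3′ as given in the array files, with no base singled out by capitals. The Ccar1 probe at base 1782 crosses an exon boundary, since its ends lie 792 bases apart in the genome (chr10:62227259-62228050, minus strand), whereas the probe at base 2514 lies within 1 stretch.
Ccar1 1782: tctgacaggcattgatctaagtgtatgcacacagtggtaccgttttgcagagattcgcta
Ccar1 2514: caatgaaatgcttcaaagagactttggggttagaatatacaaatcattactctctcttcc

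The brightest probes of Sltm and Ppig, the nuclear RNA-associated members, read lower than untreated with B. clausii at every time. The brightest Sltm probe, at base 1357 (chr9:70427131-70427190, plus strand), had log2 ratios of -0.77, -1.06, -1.51 and -1.39 with B. clausii, against -0.36, -0.21, -0.42 and -0.60 with L. acidophilus. The probe at base 654 of Sltm (chr9:70409780-70419966, crossing an exon boundary) had -0.90, -0.83, -1.04 and -0.90 with B. clausii and -0.10, -0.33, -0.29 and -0.37 with L. acidophilus. Both probes read lower on every B. clausii array than on any L. acidophilus array. The last probe, at base 2757 (chr9:70434745-70434905, crossing an exon boundary), had 0.21, -0.15, 0.28 and -0.59 with B. clausii, against 0.033, 0.11, -0.22 and -0.45 with L. acidophilus. Its ratios overlap fully and were below -0.5 on a single array, at 6 h with B. clausii. All 3 Sltm probes were well above background in both channels on all 8 arrays.
Sltm 654: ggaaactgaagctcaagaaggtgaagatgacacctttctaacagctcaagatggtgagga
Sltm 1357: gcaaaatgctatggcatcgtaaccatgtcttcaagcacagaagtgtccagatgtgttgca
Sltm 2757: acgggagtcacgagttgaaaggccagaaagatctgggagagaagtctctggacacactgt

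Ppig was low already at 1 h. Its brightest probe, at base 844 (chr2:69574122-69574181, plus strand), had ratios of -1.20, -1.06, -1.36 and -1.01 with B. clausii and -0.35, -0.49, -0.33 and -0.38 with L. acidophilus. The values of the bacteria do not overlap, and neither moves in 1 direction with time. A dimmer probe at base 317 of Ppig gave B. clausii ratios of -0.39 to -0.61 and L. acidophilus ratios of -0.065 to -0.40, with 1 of the 4 times in the opposite order. The remaining Ppig probe, at base 4868, was not above background on any array. Of the relatives of Sltm, Safb differed by -0.084 (limma, adjusted p = 0.392) and the kept Safb2 probe by 0.25 (adjusted p = 0.0796), neither past the threshold.

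All 3 Esf1 probes were well above background in both channels on all 8 arrays, and they did not read alike. The brightest, at base 1673 (chr2:139980568-139980627, minus strand), had log2 ratios of -0.79, -0.98, -1.38 and -1.35 with B. clausii, against -0.33, -0.37, -0.42 and -0.37 with L. acidophilus. The probe at base 1381 of Esf1 (chr2:139984283-139984342) had -0.54, -0.98, -1.32 and -1.27 with B. clausii and -0.24, -0.35, -0.60 and -0.41 with L. acidophilus. Both probes read lower with B. clausii at each of the 4 times, though the 1 h value at base 1381 overlaps the L. acidophilus range. The probe at base 2258 (chr2:139949316-139949375) had -0.20, -0.29, -0.19 and 0.055 with B. clausii, against -0.31, -0.083, -0.051 and 0.20 with L. acidophilus. It was near the untreated level with both bacteria, and its difference of -0.095 compares with -0.75 and -0.63 at the other 2 probes.
Esf1 1381: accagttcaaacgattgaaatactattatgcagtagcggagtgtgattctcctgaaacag
Esf1 1673: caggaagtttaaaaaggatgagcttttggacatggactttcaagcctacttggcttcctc
Esf1 2258: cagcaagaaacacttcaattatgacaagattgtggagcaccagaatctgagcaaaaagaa

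Heatr6 was similar. Its probe at base 778 (chr11:83572914-83574453, plus strand, crossing an exon boundary) had ratios of -0.96, -0.99, -1.47 and -0.90 with B. clausii and -0.26, -0.30, -0.39 and -0.52 with L. acidophilus. The probe at base 5545 of the same transcript (chr11:83597129-83597188) had 0.20, 0.30, -0.0054 and -0.16 with B. clausii, against 0.10, 0.20, 0.021 and -0.13 with L. acidophilus. The first separates the bacteria without overlap and the second does not separate them at any time by more than 0.098. A further probe, at base 3836, was brighter, with 719 to 1393 in treated cells against 64 to 239 at base 778. It was flagged on the 2 h L. acidophilus array, so it was left out of the fits and of the choice of brightest probe. At the 3 remaining times its mean difference was -0.19, against -0.71 over 4 times at base 778.

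Rock1 and Kif5b serve the cytoskeleton. The brightest Rock1 probe, at base 3274 (chr18:10084371-10090831, minus strand, crossing an exon boundary), had ratios of -1.11, -0.96, -1.24 and -0.76 with B. clausii and -0.18, -0.17, -0.24 and -0.20 with L. acidophilus. This is the largest mean difference among the 9 genes, and it was smallest at 6 h (-0.56) and largest at 4 h (-1.01). The dimmer Rock1 probes at bases 1440 and 1910 had mean differences of -0.23 and -0.37, with the ratios of the bacteria not overlapping at either. Their size moved with the processing. With normexp offset 0 the differences were -0.46 and -0.76, and with the processed signals of the scanner software, which are also normalized in another way, -0.92 and -1.16. The brightest probe had -0.89 under both. Rock2, which shares most targets with Rock1, differed by -0.049 (limma, adjusted p = 0.659).

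Kif5b carries vesicles and organelles along microtubules. Its brightest probe, at base 1225 (chr18:6223638-6223976, minus strand, crossing an exon boundary), had ratios of -0.45, -0.54, -0.95 and -1.09 with B. clausii, against 0.038, -0.029, -0.15 and -0.27 with L. acidophilus. The ratios do not overlap, and in both sets the 4 and 6 h values lie below those at 1 and 2 h. The second Kif5b probe, at base 2945 and dimmer, had 0.093, -0.19, -0.45 and -0.21 with B. clausii and -0.11, 0.086, -0.0057 and -0.11 with L. acidophilus, so its values overlap. Of the other kinesin-1 heavy chains, Kif5a differed by 0.013 at its kept probe (limma, adjusted p = 0.93), and Kif5c had no kept probe.

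Glg1 is the Golgi member. At base 3792 (chr8:113681476-113681535, minus strand) its ratios were -0.43, -0.92, -1.30 and -1.49 with B. clausii and -0.037, -0.13, -0.38 and -0.76 with L. acidophilus. With both bacteria the ratio was lower at each later time, and the B. clausii value at 1 h overlaps the L. acidophilus range. A second Glg1 probe, at base 5407 of another target accession, had B. clausii ratios of -0.19 to -0.62 and L. acidophilus ratios of -0.14 to -0.40, a mean difference of -0.12.

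Brd8, the TIP60 subunit, did not show a low ratio at more than 1 spot. Its brightest probe, at base 2813 (chr18:34763388-34763447, minus strand), had ratios of -0.016, -0.063, -2.07 and -0.066 with B. clausii, against -0.15, -0.18, 0.13 and -0.13 with L. acidophilus. Only the 4 h value is low, and at the other 3 times the mean was -0.048 with B. clausii and -0.15 with L. acidophilus, a difference of 0.10 on the log2 scale. The low ratio came from the untreated channel. On the 4 h B. clausii array the untreated signal of this spot was 4442, or 6.85 times the median of the other 7 arrays, where it lay between 629 and 729. The treated signal was 632 on that array, above the 265 to 496 of the other arrays. The spot carried 0 outlier or saturation flags. The second kept Brd8 probe, at base 3919 of the same transcript, had B. clausii ratios of 0.010 to 0.25 and L. acidophilus ratios of -0.16 to 0.084, but it was well above background in treated cells on 2 arrays and in untreated cells on 0. The other 2 Brd8 probes were not kept. The data do not bear out Brd8 as a gene lowered by B. clausii. Without Brd8 the median difference of the other 8 brightest probes was -0.76.

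Counted over probes, all 4 B. clausii ratios lay below all 4 L. acidophilus ratios at 11 of the 22 kept probes and at 7 of the 9 brightest. Over all kept probes the share was 4.47%, and limma called 0.895% lower with B. clausii (adjusted p under 0.05). Since the members were selected on this difference, nothing is read from the contrast with those shares. The exceptions among the brightest probes were Glg1, whose 1 h value overlaps, and Brd8. On single arrays, 2, 3, 11 and 8 of the 22 kept probes were at least 2-fold lower than untreated at 1, 2, 4 and 6 h with B. clausii, and 0 at each time with L. acidophilus. Over all kept probes the shares at least 2-fold lower were 0.127%, 0.0609%, 0.267% and 0.366% at those times with B. clausii, against 0.0187%, 0.0141%, 0.0281% and 0.122% with L. acidophilus.

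The treated channel carried most of the difference. The background-corrected Esf1 signal at base 1673 was 618, 757, 741 and 585 in treated cells, against 2633, 2751, 3181 and 2686 in untreated cells, on the B. clausii arrays. On the L. acidophilus arrays it was 1252, 1480, 1454 and 1193 in treated cells, against 2435, 2588, 2710 and 2239 in untreated cells. The untreated signals of the 2 slides lie close together while the treated signals do not overlap. Rock1 at base 3274 read 192, 322, 287 and 363 in B. clausii-treated cells and 527, 703, 701 and 557 in L. acidophilus-treated cells, with 1101 to 1200 in untreated cells of the B. clausii arrays and 936 to 1166 in those of the L. acidophilus arrays. Glg1 at base 3792 read 4715, 4540, 3566 and 3555 in B. clausii-treated cells against 10161, 11659, 10519 and 5970 in L. acidophilus-treated cells. These signals are not scaled between arrays, so their gaps also hold any difference in brightness of whole arrays. After scaling, the treated log2 values at 1 h lay closer together. They were 13.153 with B. clausii and 13.565 with L. acidophilus for Glg1, and 8.744 and 9.501 for Rock1 at base 3274. On channel values scaled across arrays, the treated channel differed between the slides by -0.49 (Kif5b) to -1.001 (Sltm) on the log2 scale at the 8 brightest probes other than Brd8. The untreated channel differed by -0.22 (Sltm) to 0.16 (Kif5b). For Brd8 the treated channel was higher by 0.22 with B. clausii and the untreated channel by 0.69.

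**Figure D2:**
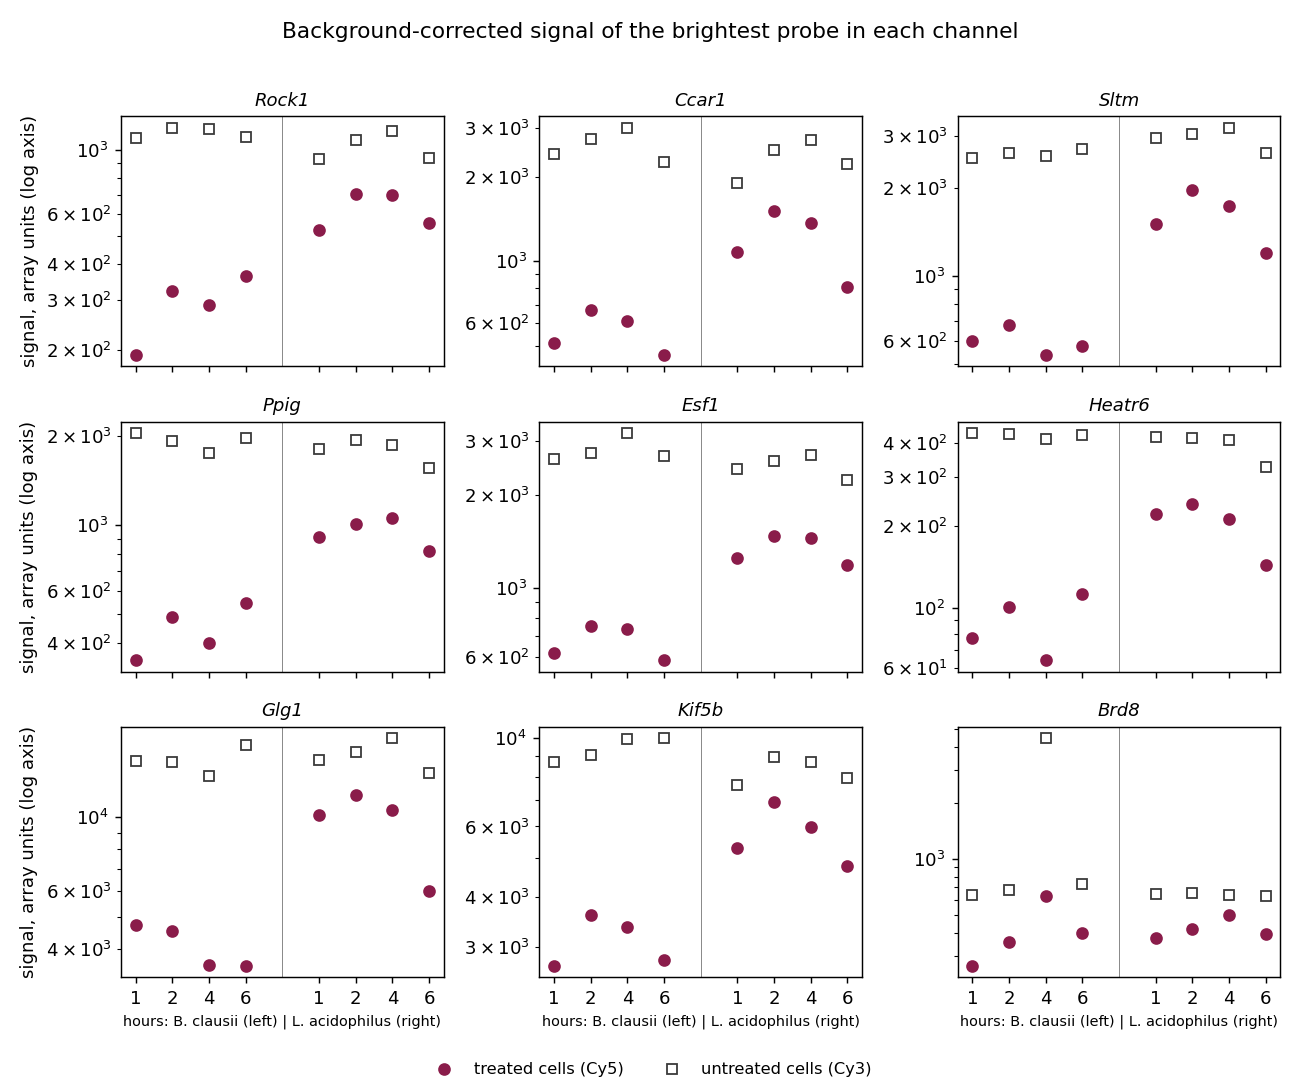
Background-corrected signal of each gene's brightest probe (vertical log axis, array units) by hours (horizontal axis), with the 4 B. clausii arrays left of the 4 L. acidophilus arrays. Filled circles are treated cells and open squares untreated cells, and the signals are not scaled between arrays. In 8 genes the squares on the left and right overlap in range, though they are not level (1911 to 3003 in Ccar1). The circles of these genes are all lower on the left. In Brd8 a single square stands at 4442 on the 4 h B. clausii array.

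The scanner software's own error of a single log2 ratio was 0.204 to 0.285 at the brightest probes of the 8 genes other than Brd8. Kept probes within 5 rows and 5 columns of these on the slide had median differences between -0.094 (Heatr6) and 0.078 (Glg1), and subtracting them left differences of -0.56 (Kif5b) to -0.86 (Ccar1). The median GC content was 43.3% for the 9 brightest probes and 43.3% for all kept probes. Over all 21336 kept probes the correlation of the difference with GC content was 0.20 and with brightness -0.0076, given as descriptions across probes that share arrays.

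Where a member's transcript had 2 or more kept probes, the difference between the bacteria varied with the probe, in either direction along the transcript. In Sltm and Esf1 the middle probe (-0.79 at base 1357 and -0.75 at base 1673) lay lower than the first probe. This order did not hold in Sltm with the processed signals of the scanner software, at -0.87 for the middle and -0.93 for the first probe. In Esf1 the processed values were nearly equal, at -0.83 and -0.82. From the first to the last kept probe of the RefSeq target, the difference between the bacteria went up toward 0 in Esf1 (-0.63 at base 1381, -0.095 at base 2258), Sltm (-0.64 at base 654, 0.070 at base 2757), Heatr6 (-0.71 at base 778, 0.037 at base 5545) and Kif5b (-0.66 at base 1225, -0.16 at base 2945). The order was the opposite in Rock1, Ccar1 and Ppig, where the downstream probe was the brightest and had the lower value. Because 1 probe of each gene was selected on its low value, these gaps are descriptions. Over all 3729 RefSeq transcripts with at least 2 kept probes, the median gap of the first minus the last probe was -0.015, and the first probe was the lower in 53.2% of them. In the 1014 transcripts whose probes lie more than 2000 bases apart the median gap was -0.041 and the first was lower in 58.4%. The gap was -0.54 in Esf1, -0.71 in Sltm, -0.75 in Heatr6, -0.50 in Kif5b and -0.65 in Brd8, where it rests on 1 spot. It was 0.59 in Rock1, 0.49 in Ppig and 0.19 in Ccar1, but these positive gaps did not hold with the processed signals of the scanner software. There Rock1 had -0.92 at base 1440 and -0.89 at base 3274, and Ppig -0.84 at base 317 and -0.81 at base 844. Ccar1 had -1.06 at base 1782 and -0.89 at base 2514. The gaps of Esf1, Sltm, Heatr6 and Kif5b kept their direction there. What gives rise to these gaps was not tested.

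**Figure D3:**
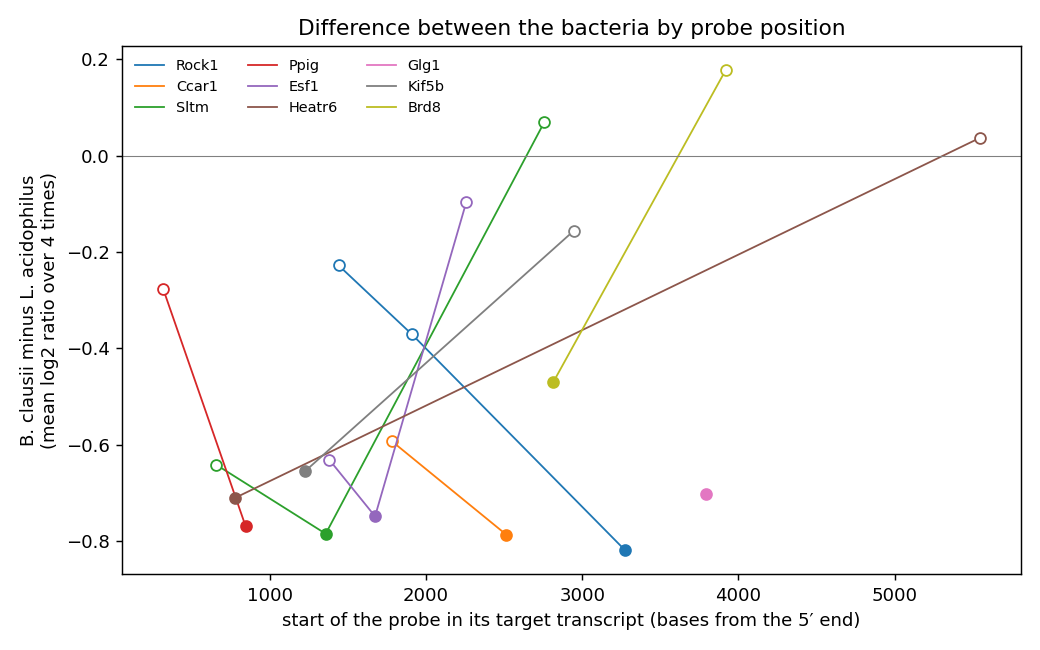
Mean difference of log2 ratios between B. clausii and L. acidophilus over 4 times (vertical axis) against the start of each kept probe in its RefSeq target transcript (horizontal axis, bases from the 5′ end). Filled points are each gene's brightest probe and lines join probes of 1 transcript. The lines of Esf1, Sltm, Heatr6, Kif5b and Brd8 end nearer to or above 0 on the right, and those of Rock1, Ccar1 and Ppig run downward.

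Change over time was not used to choose the genes and was tested. The mean ratio at 4 and 6 h minus that at 1 and 2 h, averaged over both bacteria, was fitted with limma over all 21336 kept probes, with bacterium and time as terms and Benjamini-Hochberg adjustment. Of the 22 kept member probes, 8 fell and 1 rose at adjusted p under 0.05, beside 11.2% of all kept probes lower and 11.8% higher. The median change was -0.21 over the 22 probes and -0.37 over the 9 brightest, against 0.0056 over all. The p-values rest on 8 arrays of pooled cultures and leave out the scatter between cultures.

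Glg1 changed most. At base 3792 it fell by 0.60 ± 0.084 (SE, 8 arrays, limma, adjusted p = 0.00176), with a change of -0.72 with B. clausii and -0.49 with L. acidophilus. Its call held with each of the 8 arrays left out in turn. Ccar1 fell at both transcript probes, by 0.46 ± 0.084 at base 2514 (adjusted p = 0.00563) and by 0.36 ± 0.062 at base 1782 (adjusted p = 0.00445). The change at base 2514 was -0.46 with either bacterium, and both calls held with each array left out. Kif5b fell by 0.37 ± 0.075 at base 1225 (adjusted p = 0.0088), and the call was lost when the 4 h array of B. clausii was left out (adjusted p = 0.051). Heatr6 fell by 0.27 ± 0.058 at base 5545 (adjusted p = 0.0113), the probe that did not separate the bacteria, and the call was lost when the 2 h array of B. clausii (adjusted p = 0.0619) or its 4 h array (adjusted p = 0.0643) was left out.

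The other 4 calls were lost more often. Sltm at base 1357 fell by 0.38 ± 0.098 (limma, adjusted p = 0.0228) and held in 2 of the 8 fits that leave out 1 array, and Esf1 at base 1381 fell by 0.37 ± 0.089 (adjusted p = 0.0166) and held in 3. Glg1 at base 5407 fell by 0.23 ± 0.070 (adjusted p = 0.0437) and held in 1. Esf1 at base 2258 rose by 0.23 ± 0.068 (adjusted p = 0.0404), opposite to the other Esf1 probes, and held in 1. The highest adjusted p without 1 array was 0.103 for Sltm, 0.0765 and 0.166 for the 2 Esf1 probes and 0.177 for Glg1. Rock1 at base 3274 and Ppig at base 844 had changes of -0.0033 ± 0.079 and 0.0053 ± 0.082 (adjusted p = 0.984 and 0.974), and their ratios were low from 1 h on. With the processed signals of the scanner software in place of the recomputed ratios, the calls of Glg1 at base 3792 and Heatr6 at base 5545 held (adjusted p = 0.0396 and 0.0356) and the other 7 were lost. With median centring in place of loess, limma called Glg1 at base 3792 lower (adjusted p = 0.00642) and Esf1 at base 2258 higher (adjusted p = 0.00919), and the other 7 calls, both of Ccar1 included, were lost.

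**Figure D4:**
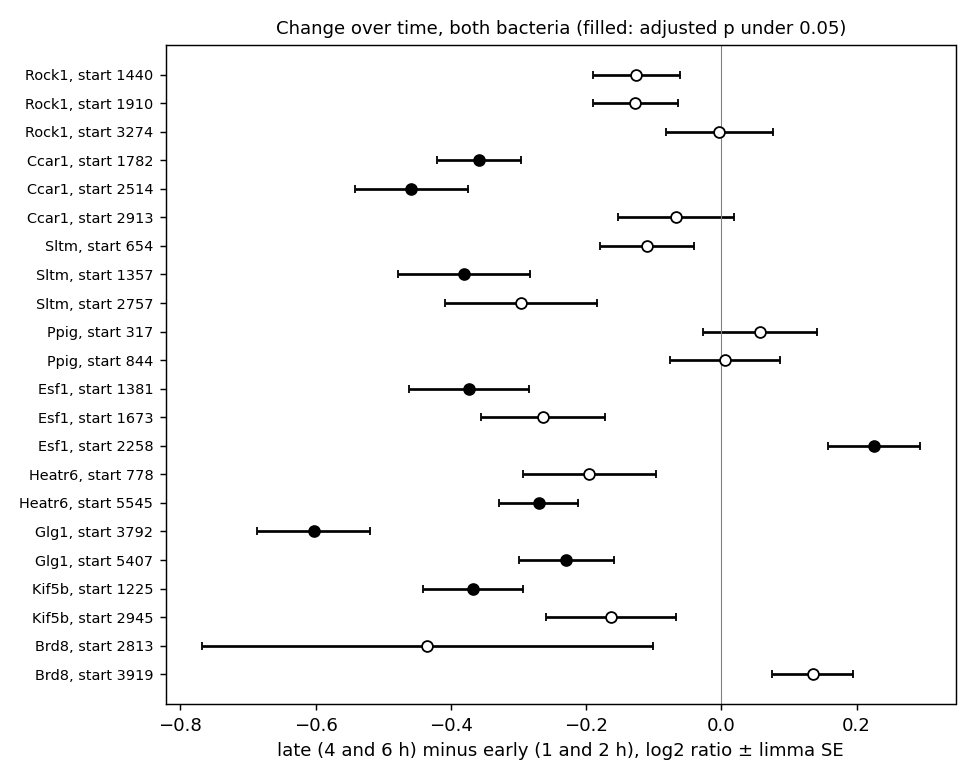
Change of the log2 ratio from early (1 and 2 h) to late (4 and 6 h) over both bacteria (horizontal axis), with limma's SE as bars, for the 22 kept probes of the 9 genes. Filled points passed an adjusted p under 0.05. Glg1 at base 3792 lies lowest of the filled points at -0.60, and Esf1 at base 2258 is the only filled point above 0.

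Whether the change over time differed between the bacteria was tested as an interaction. No kept probe passed it, 0% of the 21336, and 267 had an unadjusted p under 0.05. Among the members 1 probe had an unadjusted p under 0.05, that of Esf1 at base 1673, with a change of -0.48 with B. clausii and -0.047 with L. acidophilus (interaction -0.43 ± 0.15, limma, adjusted p = 1). The brightest probes other than Brd8 had interactions between -0.43 (Esf1) and 0.076 (Rock1).

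Few partners of these genes differed between the bacteria past the threshold. In 7 lists chosen by role there were 112 genes with a kept probe, of which limma called 4 lower with B. clausii and 0 higher, beside 0.646% of all genes lower and 0.431% higher. These 4 calls rest on the processing: limma called 0 of all kept probes in this comparison with normexp offset 0, with the processed signals, with the series matrix values or without the 4 h array of either bacterium. Of the 29 genes for ribosomal RNA processing measured with Esf1, 1 was lower: Rrp1 averaged -0.97 with B. clausii and -0.56 with L. acidophilus (difference -0.42 ± 0.071, adjusted p = 0.0346). Rrp1 is a nucleolar protein of large-subunit assembly, and its call is the only one in that list, whose median was -0.017. Of the 15 Golgi matrix and trafficking genes set beside Glg1, 3 were lower. Golgb1 (giantin) averaged -0.62 with B. clausii and -0.24 with L. acidophilus (difference -0.38 ± 0.057, adjusted p = 0.026). Golga4 averaged 0.15 with B. clausii and 0.52 with L. acidophilus (difference -0.37 ± 0.069, adjusted p = 0.0456). Tmf1 averaged -0.43 with B. clausii and -0.066 with L. acidophilus (difference -0.36 ± 0.060, adjusted p = 0.0322). The median of the Golgi list was -0.036.

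In the other 5 lists limma called no gene, and their medians lay between -0.13 and 0.069. The 14 coactivator and Mediator genes ranged from -0.19 (Med23) to 0.23 (Med12). In the nuclear scaffold list of 17 the largest were Safb2, given above, and Thrap3 at 0.15, and among 7 nuclear cyclophilins Ppie and Ppih had -0.15 each. Among 13 microtubule motor genes Kif1b had -0.29 and Mapk8ip3 0.18, and among 17 TIP60 complex genes Mbtd1 had -0.37 (adjusted p = 0.0581) and Yeats4 -0.22.

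Across the 8 arrays the brightest probes of 8 of the 9 genes followed the median profile of the other members, with Pearson's r from 0.83 (Glg1) to 0.96 (Sltm). Brd8 reached 0.56. The 8 points share slides and the split between bacteria, and the members were selected on that split. A high r was therefore favoured in advance, and r describes these arrays only. The same holds for the probes of other genes that follow, which were also taken by their difference. Among 55 kept probes of other genes with a mean difference of -0.5 or lower, the 6 closest to the members' median profile had r from 0.973 to 0.986. They were probes of Eif3a (difference -0.74) and Eif5b (-0.77), which are translation initiation factors, Thoc2 (2 probes, -0.59 and -0.54), a subunit of the THO mRNA export complex, Zc3h15 (-0.66), and Pcm1 (-0.53), a centriolar satellite protein.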

How the data were processed

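RNA of RAW264.7 cells was measured on 8 two-colour arrays, 1 per bacterium and time. The intensity of a spot was deposited as the mean of its pixels and the median of the local background around it, per the file headers, and the deposited log10 ratio of red over green was computed by Feature Extraction from processed signals. The headers give version 10.7.3.1, and the submitters' processing notes give Agilent Feature Extraction 10.5.1.1. The series matrix holds the same deposited log10 ratios, rounded to within 0.005.

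From the deposited intensities, log2 ratios of treated (Cy5) over untreated (Cy3) were computed with limma 3.58.1 in R 4.3.3: normexp with offset 50, loess within each array, flagged spots left out. Local backgrounds above 3 times the array median and marked as outliers by the software were replaced by it, a step added after the files had been seen. The offset pulls ratios of dim spots toward 0. A probe was kept if it was flagged well above background in either channel on 2 arrays or more. Limma (lmFit, eBayes) fitted bacterium and time (3 residual degrees of freedom) for late minus early and B. clausii minus L. acidophilus, and the 4 combinations of bacterium and phase (4 residual degrees of freedom) for the interaction. On simulated data with 200 changed probes of the 21336, late minus early recovered 99% of changes of 0.5, with 10.8% of its calls false, and the interaction 10.5% of changes of 0.5 and 99% of changes of 1.

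Probes are named as in the files, whose annotation versions differ between the slides, and other genes through a RefSeq table of assembly GRCm38.p6. Probe positions are in mm9, per the file headers. The members and gene lists were chosen with earlier results of these data known. Named genes are the 9 members with every probe, the called genes of each list (up to 3 per direction, or the 2 largest differences), 6 probes with the most similar profile, and named paralogs. Alternatives were other background corrections, scalings, filters, priors and thresholds, 1 probe a gene, and each array or time left out. The result of 1 further list is not reported here.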

Additional observations from a re-analysis of the deposited data

Results flagged for a closer look

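Within the 4 times of each bacterium, 44 sets of 4 ratios from the 22 kept probes of the 9 genes were examined for a value set apart from the other 3 by more than Dixon's critical share of the whole range. The 4 values are different times, not replicates, and chance marks about 5% of such sets even among replicates. The number marked was 4. Brd8 at base 2813 stood apart at 4 h with both bacteria, at -2.07 with B. clausii and at 0.13 with L. acidophilus. The first is the spot whose untreated signal was 4442. Heatr6 at base 778 was lowest at 4 h with B. clausii, at -1.47, against -0.90 to -0.99 at the other times. Ppig at base 317 was highest at 1 h with B. clausii, at -0.39, against -0.59 to -0.61 at the other times.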

How the results depend on the processing

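The median difference of the members' brightest probes, -0.75, lay between -0.78 and -0.68 with any 1 array or both arrays of a time left out, was -0.76 without Brd8 (an alternative added after the data had been seen), and moved to -1.03 with median centring in place of loess, a scaling that shifted all kept probes by -0.13. The sign changed across settings at 5 member probes. At Brd8 base 3919, a dim probe, the difference was -0.026 with the series matrix values and -0.17 in the treated channel alone. At Brd8 base 2813 it reached 0.22 in the treated channel and 0.10 without the 4 h spots, at Ccar1 base 2913 it ran from -0.24 to 0.020, at Sltm base 2757 from -0.14 to 0.18, and at Heatr6 base 5545 from -0.16 to 0.22. At the 8 brightest probes other than Brd8 it stayed below 0 in all 27 settings run.

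The 9 member probes called in late minus early were 5 with normexp offset 0, 2 with median centring, 2 with processed signals, 2 with the series matrix values, 4 among the brightest probes alone and 1 with no bacterium term, and ranged from 2 to 10 with arrays left out. Over all probes, 4899 were called in late minus early. The count was 2883 with offset 0, 1560 with the local background as deposited, 1485 with processed signals, 1485 with the series matrix, 3016 with no bacterium term, and 1497 (both 1 h arrays left out) to 5430 (6 h L. acidophilus array left out).

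For B. clausii minus L. acidophilus 270 probes were called, 191 lower and 79 higher. Limma called 0 with offset 0, 0 with processed signals and 0 with the series matrix, where 4242, 4259 and 4236 had an unadjusted p under 0.05. It called 8 with the local background as deposited, 6 with no time term, 94 with no filter, 95 with 1 probe a gene, 583 with probes well above background in both channels on all arrays, 1111 at adjusted p under 0.1, and 6717 with median centring (6605 lower, 112 higher). With arrays left out the count ran from 0 (the 4 h array of either bacterium, or both) to 82. The interaction called 0 probes, and 0 to 18 with arrays left out, the most without both 4 h arrays. No cause of these changes was tested. The fit with time as a term compares the bacteria within each time. The difference at Rock1 base 1910, a dim probe, ran from -1.16 to -0.24 across settings.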
